A study of Arabidopsis thaliana with 9 samples.

Results

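The genes described here are the DNA replication and cell cycle genes of Arabidopsis thaliana, 44 genes picked by gene ID for what their products do (the MCM helicase, origin recognition, the PCNA clamp, ribonucleotide reductase, the CAF-1 histone chaperone, E2F factors, histone H3.1, A-, B- and D-type cyclins, B-type CDKs, CDC20, Aurora kinases and KNOLLE), out of 38194 genes in the count files. The choice was made with earlier results of these data known. All 44 IDs were found. By role, 24 belong to S phase, 4 regulate the step into S phase and 16 act in mitosis. RNA-Seq had been performed on whole seedlings, 4 days old and kept at 23 °C in long days, with 3 libraries (A, B and C) in each of 3 groups, all on the Columbia background. The OE UPAT seedlings carried 35S:UPAT, which is a human long noncoding RNA (lncRNA) under a viral promoter active in most plant cells. The libraries labelled OE APOLO came from seedlings with 35S:APOLO, an Arabidopsis lncRNA under the same promoter. WT seedlings carried neither. Each construct was represented by a single transgenic line, so that a line and its construct cannot be told apart. The study asked whether the 2 unrelated lncRNAs act on a comparable set of genes.

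A dividing plant cell copies its DNA once in S phase and parts the copies in mitosis. In late mitosis and G1 the origin recognition complex (ORC), CDC6 and CDT1 load the MCM helicase onto DNA. E2F factors, released when D-type cyclins act on the retinoblastoma protein, then switch on the genes of DNA synthesis, whereas genes of mitosis are switched on later through MYB3R factors that bind the mitosis-specific activator (MSA) element. In seedlings, cells divide in the shoot and root meristems and in young leaves, while many other cells copy their DNA without dividing, which is called the endocycle.

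The deposited estimated counts summed to 7901946 to 9206471 per library in OE UPAT, 11918225 to 14112670 in the libraries labelled OE APOLO and 13023768 to 14084551 in WT, and no library was left out. The members took between 3118 and 4677 counts of a library, with a median of 53 to 82.5 counts for a member. APOLO itself (AT2G34655) had 1, 3 and 3 counts in the libraries labelled OE APOLO and 2 counts in each WT library, none above the floor of 3 counts. Its overexpression was thus not seen in these counts and the group is named by its label. UPAT is a human RNA and was not among the features counted. Genes of the shoot and of the root were present in every group, with STM at 2.41 to 2.88 CPM and SHR at 11.4 to 14.5 CPM in OE UPAT, against 2.02 to 2.95 and 11.1 to 12.6 CPM in WT. Levels are given in CPM, which are counts scaled to the total of each library in genes after TMM normalization.

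In OE UPAT seedlings most of the S phase members rose together. 20 of the 23 S phase members tested were higher than in WT and none was lower, with a median log2 fold change of 1.06, which is 2.08-fold, against −0.01 over all 20021 genes tested. Of the 4 regulators of the step into S phase, DEL1 alone rose. None of the 16 mitosis members passed the test, with a median log2 fold change of 0.34. A change was called at an FDR under 0.01, Benjamini-Hochberg adjusted over all genes tested, in edgeR's quasi-likelihood test. The background was 10.1% of all genes called higher and 9.72% called lower. Since the members were chosen with earlier results known, their share called is a description and no test against this background. In whole seedlings, more cells that copy DNA and more RNA per such cell cannot be told apart. The gene with too few counts to be tested was ORC1A, which passed the filter's cutoff in 1 OE UPAT library alone.

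**Figure D1:**
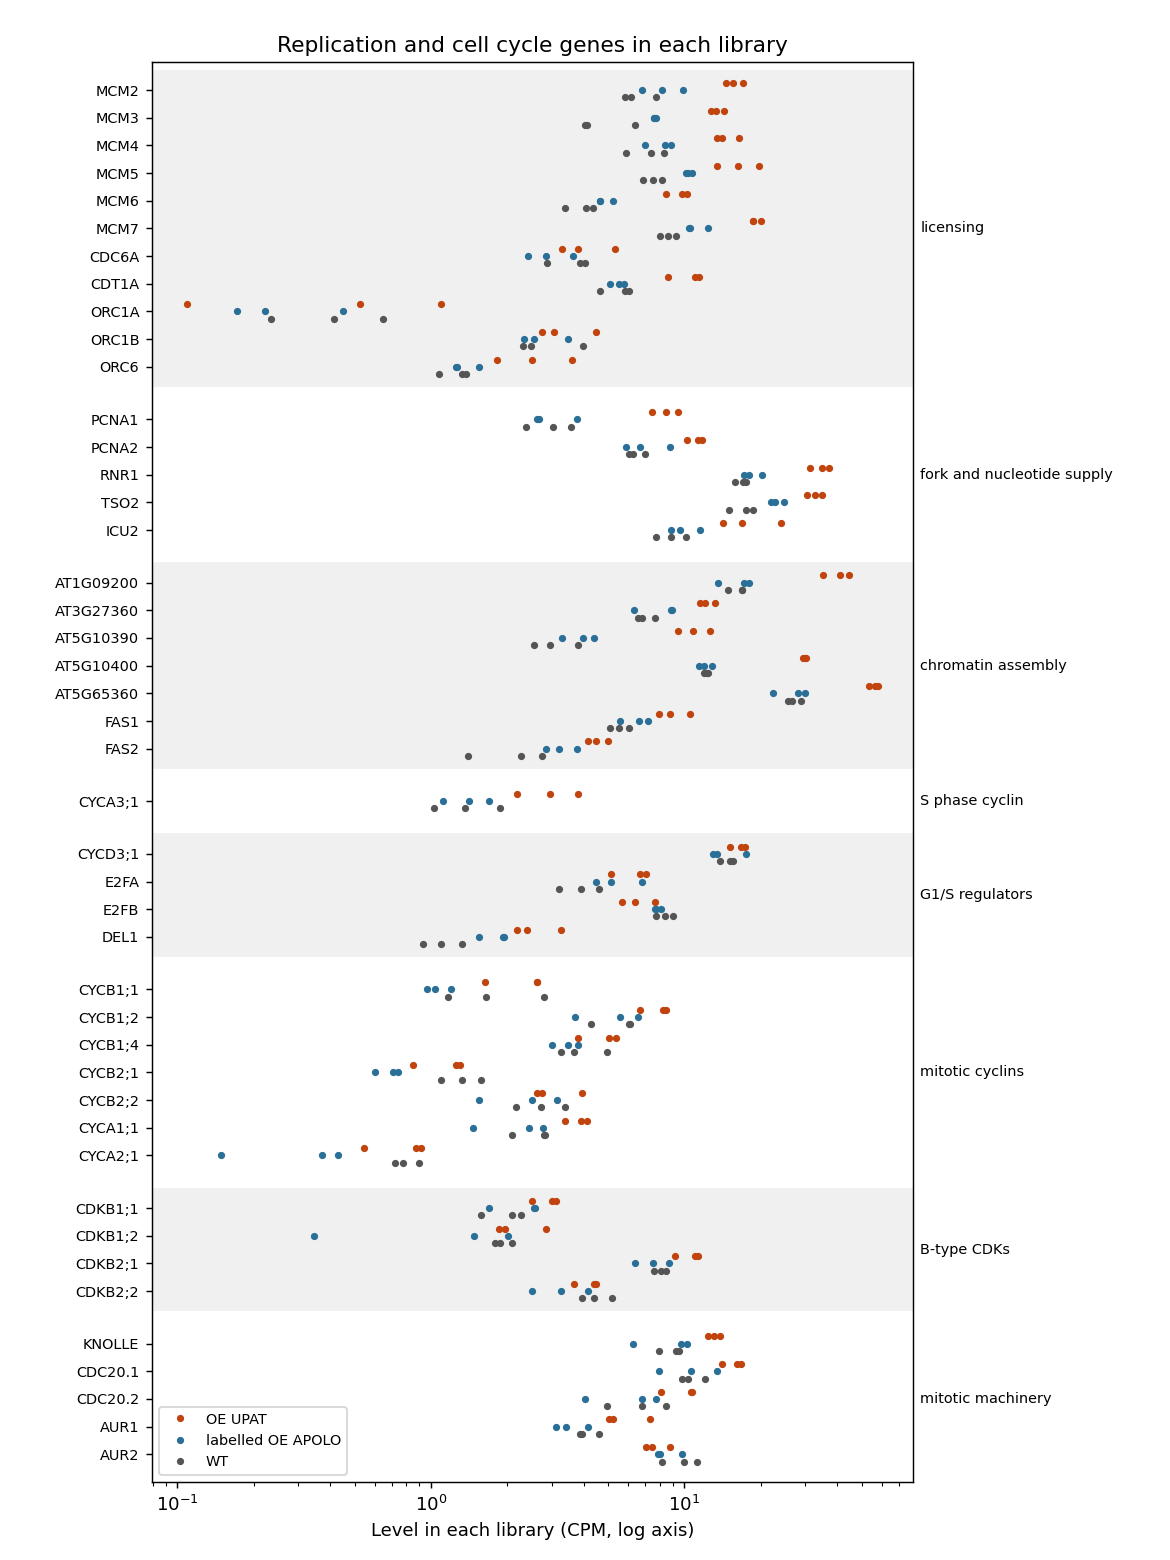
Level of each of the 44 members in every library, in CPM on a log axis, with genes in rows by function and 1 point per library (OE UPAT in orange above, labelled OE APOLO in blue, WT in grey below). The OE UPAT points lie to the right of both other groups for most genes of licensing, the fork and chromatin assembly, and lie among or near them for the mitotic genes, where 1 library labelled OE APOLO is low for CDKB1;2 at 0.345 CPM.

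The MCM genes encode the 6 subunits of the ring that unwinds DNA at the replication fork, and all 6 rose in OE UPAT. MCM3 (AT5G46280), the member of the ring that changed most, had 12.7, 13.3 and 14.4 CPM in OE UPAT, against 6.40, 4.13 and 4.04 CPM in WT (a change of 1.46 ± 0.16 SE in log2, FDR 8.15e-06). MCM2 (AT1G44900) had 17.1, 14.6 and 15.6 CPM in OE UPAT, against 6.18, 7.71 and 5.83 CPM in WT (a change of 1.26 ± 0.15 SE in log2, FDR 1.88e-05). MCM6 (AT5G44635) was present at 9.75, 10.2 and 8.50 CPM in OE UPAT, against 4.10, 3.37 and 4.35 CPM in WT (a change of 1.27 ± 0.15 SE in log2, FDR 1.74e-05). For these subunits the lowest OE UPAT library lay well above the highest WT library, and WT library A stood above the other WT libraries for MCM3. MCM7 (AT4G02060) had 18.7, 18.6 and 20.0 CPM in OE UPAT, against 7.98, 9.29 and 8.63 CPM in WT (a change of 1.14 ± 0.11 SE in log2, FDR 2.76e-06). MCM5 (AT2G07690) had 19.7, 16.3 and 13.5 CPM in OE UPAT, against 7.55, 8.19 and 6.84 CPM in WT (a change of 1.14 ± 0.14 SE in log2, FDR 1.96e-05). MCM4 (AT2G16440) had 14.0, 16.4 and 13.5 CPM in OE UPAT, against 7.40, 8.33 and 5.91 CPM in WT (a change of 1.02 ± 0.15 SE in log2, FDR 9.06e-05). The 6 log2 fold changes thus lay between 1.02 and 1.46, and the groups did not overlap for any subunit.

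The factors that load this helicase were less uniform. CDT1A (AT2G31270), a loading factor, rose, with 8.65, 11.0 and 11.4 CPM in OE UPAT, against 5.82, 6.06 and 4.66 CPM in WT (a change of 0.90 ± 0.15 SE in log2, FDR 0.000378). ORC6 (AT1G26840), an ORC subunit, had 3.61, 2.5 and 1.83 CPM in OE UPAT, against 1.08, 1.38 and 1.32 CPM in WT (a change of 1.08 ± 0.28 SE in log2, FDR 0.00863), and its call was lost in 9 of 17 alternatives (highest FDR 0.0679), among them DESeq2 and the fits without any 1 of the WT libraries, OE UPAT library A or B, or library B labelled OE APOLO. Its lowest OE UPAT library, C, still lay above all WT libraries. CDC6A (AT2G29680), the other loading factor, had 3.29, 5.33 and 3.79 CPM in OE UPAT, against 3.88, 4.06 and 2.88 CPM in WT with overlapping groups (log2 fold change 0.20, 95% interval −0.29 to 0.69). ORC1B (AT4G12620), a large ORC subunit, had 4.49, 3.05 and 2.75 CPM in OE UPAT, against 2.30, 3.99 and 2.49 CPM in WT, again with overlap (log2 fold change 0.23, 95% interval −0.34 to 0.80). Both intervals end below the smallest change of an MCM gene. The related ORC1A (AT4G14700) had 1.10, 0.109 and 0.523 CPM in OE UPAT, against 0.647, 0.413 and 0.233 CPM in WT, close to the 0.206 to 0.392 CPM that 3 counts were worth, and 31.4% of its 75-base windows lay in exons shared with overlapping genes.

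E2F factors bind TTTCCCGC and near variants of it. One of TTTCCCGC, TTTGGCGC, TTTCGCGC and TTTGCCGC, on either strand, stood in the promoter window (250 bases before to 50 after the annotated start, RefSeq TAIR10.1) of 10 of 24 S phase members (41.7%), 0 of 16 mitosis members and 0 of 4 regulators, against 483 of 27443 protein-coding genes (1.76%). The stretches that hold it in 3 MCM genes are shown 5′ to 3′ on the strand of the gene, with the motif in capitals, because these called genes hold the word TTTCCCGC close to their start. MCM2 is on chromosome 1 (chr1:16970160-16970213, plus strand), MCM5 on chromosome 2 (chr2:3527501-3527559, minus strand) and MCM6 on chromosome 5 (chr5:18010668-18010753, minus strand), where the motif reads on the other strand.
MCM2: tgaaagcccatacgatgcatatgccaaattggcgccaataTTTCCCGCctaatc
MCM5: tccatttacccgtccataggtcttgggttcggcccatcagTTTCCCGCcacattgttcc
MCM6: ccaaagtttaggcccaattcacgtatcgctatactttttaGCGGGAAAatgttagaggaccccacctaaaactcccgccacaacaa
Counted in bases from the first base of the gene as 0, the motif began at −14 in MCM2, −19 in MCM5 and −46 in MCM6. MCM3 and MCM4 held TTTGGCGC on the other strand, while the MCM7, PCNA1, PCNA2 and CDT1A windows held none of the 4 words. The 9 tested S phase members with a match had a median log2 fold change of 1.09 in OE UPAT, and the 14 without one had 1.06, with 9 of 9 and 11 of 14 called. In the libraries labelled OE APOLO against WT, a comparison that shares the WT libraries, the medians were 0.30 with a match (0.14 to 0.65, 0 of 9 called) and 0.02 without (−0.28 to 0.44, 1 of 14 called). In OE UPAT against those libraries they were 0.86 with a match and 0.95 without. The differences between members with and without a match were not tested.

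The members of the replication fork and of nucleotide supply all rose, 5 of 5, while other genes of these functions, given further below, did not all rise. PCNA1 (AT1G07370), which encodes the sliding clamp that holds polymerases on DNA, had 9.42, 8.49 and 7.45 CPM in OE UPAT, against 2.37, 3.58 and 3.03 CPM in WT (a change of 1.50 ± 0.20 SE in log2, FDR 3.68e-05). Its near copy PCNA2 (AT2G29570) had 11.7, 11.3 and 10.2 CPM in OE UPAT, against 6.97, 6.06 and 6.29 CPM in WT (a change of 0.78 ± 0.15 SE in log2, FDR 0.00109), and 18.5% of its windows lie in a neighbouring gene that overlaps it. Per kilobase of exon PCNA1 was the lower of the pair in WT, at 2.65 CPM per kb against 5.44 for PCNA2, and it had the larger fold change. ICU2 (AT5G67100), the catalytic subunit of DNA polymerase alpha, had 24.1, 14.3 and 16.9 CPM in OE UPAT, against 7.69, 10.1 and 8.86 CPM in WT (a change of 1.05 ± 0.18 SE in log2, FDR 0.000321), and its OE UPAT library A was higher than B and C. ICU2 has the longest transcript of the members, and genes over 4 kb were higher in that library than in the other 2 OE UPAT libraries by a median of 0.18 on the log2 scale. The part of transcript length in the spread of ICU2 was not tested. RNR1 (AT2G21790), the large subunit of the ribonucleotide reductase that makes deoxynucleotides, had 34.8, 31.2 and 37.1 CPM in OE UPAT, against 17.0, 17.5 and 15.8 CPM in WT (a change of 1.03 ± 0.09 SE in log2, FDR 1.18e-06). TSO2 (AT3G27060), a gene of its small subunit, had 30.3, 32.9 and 35.0 CPM in OE UPAT, against 18.7, 15.0 and 17.5 CPM in WT (a change of 0.94 ± 0.10 SE in log2, FDR 4.53e-06). RNR2A, another small-subunit gene outside the members, was not called (−0.21 in log2, FDR 0.227). The groups did not overlap for RNR1 or TSO2.

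A pair of E2F words stands close together before ICU2 on chromosome 5 (chr5:26776862-26776949, plus strand), and 1 word is shown for the CAF-1 gene FAS1 on chromosome 1 (chr1:24324111-24324198, minus strand), whose other copy lies farther upstream. The motifs are again in capitals.
ICU2: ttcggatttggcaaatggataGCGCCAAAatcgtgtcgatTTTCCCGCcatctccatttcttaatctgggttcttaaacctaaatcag
FAS1: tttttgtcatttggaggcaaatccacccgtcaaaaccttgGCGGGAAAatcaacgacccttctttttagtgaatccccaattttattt
In ICU2 the matches began at −70 and −51, on opposite strands.

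The members of chromatin assembly behind the fork rose as well, 7 of 7. H3.1 is the histone H3 laid down when DNA is copied, and CAF-1 is the chaperone that places it. AT5G10390 (H3.1) had the largest change of all members, with 9.42, 12.6 and 10.9 CPM in OE UPAT, against 2.95, 2.55 and 3.81 CPM in WT (a change of 1.83 ± 0.18 SE in log2, FDR 3.30e-06). AT5G10400 (H3.1) had 30.0, 30.2 and 29.4 CPM in OE UPAT, against 11.9, 12.4 and 12.3 CPM in WT (a change of 1.29 ± 0.09 SE in log2, FDR 7.27e-08), the smallest FDR of all members. The 3 values within each group of AT5G10400 were close to one another. AT5G65360 (H3.1) had 53.7, 58.0 and 56.4 CPM in OE UPAT, against 25.6, 28.8 and 26.6 CPM in WT (a change of 1.05 ± 0.10 SE in log2, FDR 1.16e-06). AT1G09200 (H3.1) had 35.3, 44.4 and 40.9 CPM in OE UPAT, against 16.9, 16.9 and 14.9 CPM in WT (a change of 1.30 ± 0.11 SE in log2, FDR 6.94e-07). AT3G27360 (H3.1) had 11.5, 12.1 and 13.2 CPM in OE UPAT, against 6.54, 7.64 and 6.80 CPM in WT (a change of 0.80 ± 0.15 SE in log2, FDR 0.000626), and 33.5% of its windows overlap a neighbouring gene. The groups were apart for all 5 genes. Per kilobase of exon, AT5G65360 was the most abundant, at 77.5 CPM per kb in OE UPAT and 37.3 in WT, and AT5G10390 was lower, at 15.6 and 4.40. FAS2 (AT5G64630), a CAF-1 subunit, had 4.49, 5.01 and 4.18 CPM in OE UPAT, against 2.73, 2.27 and 1.40 CPM in WT (a change of 1.09 ± 0.23 SE in log2, FDR 0.00240). FAS1 (AT1G65470), another subunit, had 10.5, 8.81 and 7.98 CPM in OE UPAT, against 5.10, 6.06 and 5.52 CPM in WT (a change of 0.71 ± 0.16 SE in log2, FDR 0.00249), the smallest change among the members called. Without WT library C the calls of FAS1 and FAS2 were both lost, as they were without WT library A or OE UPAT library A for FAS1 and without OE UPAT library B for FAS2 (highest FDR 0.0171 for FAS1 and 0.0149 for FAS2).

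The H3.3 genes, whose histone is laid down outside S phase too, were added after the other values were seen. None of them was called in OE UPAT, with AT4G40030, AT4G40040 and AT5G10980 at log2 fold changes of −0.10, −0.21 and 0.05 in OE UPAT against WT and 0 of 3 called. In edgeR 1 of the 3 had an unadjusted p under 0.05, as did 8306 of all 20021 genes. Their summed level was 740 ± 61.6 CPM in OE UPAT and 809 ± 13.4 CPM in WT (SD, n = 3 each). CGCGGATC, the histone octamer motif known from plant histone promoters, stood in 3 H3.1 windows and in 40 of 27443 windows of all protein-coding genes (0.146%). These windows are printed with the octamer in capitals, as a motif found in these H3.1 windows and in no other member; all 3 genes lie on the minus strand, AT1G09200 on chromosome 1 (chr1:2972335-2972393) and AT5G10400 and AT5G65360 on chromosome 5 (chr5:3271030-3271117 and chr5:26120660-26120747).
AT1G09200: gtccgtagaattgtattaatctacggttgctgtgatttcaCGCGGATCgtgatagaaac
AT5G10400: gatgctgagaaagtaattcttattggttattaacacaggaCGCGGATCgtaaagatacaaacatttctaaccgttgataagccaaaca
AT5G65360: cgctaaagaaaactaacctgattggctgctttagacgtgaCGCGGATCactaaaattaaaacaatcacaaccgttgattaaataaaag
The octamer began at −120 in AT5G10400 and −126 in AT5G65360, each with the reverse complement of an AACGG word at the same distance behind it. AT1G09200 held it at −90 and at −19. AT5G10390 and AT3G27360 held no exact octamer.

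The remaining S phase member, the A-type cyclin gene CYCA3;1 (AT5G43080), had 2.19, 2.94 and 3.79 CPM in OE UPAT, against 1.37, 1.03 and 1.86 CPM in WT without overlap, at a log2 fold change of 1.06 and an FDR of 0.0118, just outside the threshold. Of 17 alternatives 7 put it past the threshold, among them the fits without WT library C, OE UPAT library A or library A labelled OE APOLO (lowest FDR 0.00737). Among the regulators of the step into S phase, DEL1 (AT3G48160), an atypical E2F that holds back the endocycle, had 2.19, 2.39 and 3.27 CPM in OE UPAT, against 0.935, 1.10 and 1.32 CPM in WT (a change of 1.21 ± 0.27 SE in log2, FDR 0.00300). Its counts were low, between 13 and 26, and the call was lost in 5 of 17 alternatives, including the fits without WT library A or B or OE UPAT library C (highest FDR 0.0288). E2FA (AT2G36010), an activating E2F, had 6.68, 5.11 and 7.06 CPM in OE UPAT, against 3.20, 3.92 and 4.58 CPM in WT, at a log2 fold change of 0.69 and an FDR of 0.0185. E2FB (AT5G22220), another activating E2F, ran the other way, with 7.67, 5.66 and 6.41 CPM in OE UPAT, against 8.99, 8.40 and 7.69 CPM in WT (−0.35 in log2, FDR 0.0805). The D-type cyclin gene CYCD3;1 (AT4G34160) had 15.1, 17.3 and 16.7 CPM in OE UPAT, against 15.6, 15.1 and 13.8 CPM in WT, and its 95% interval of the log2 fold change, −0.12 to 0.40, left out the size seen for the MCM genes.

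Mitosis genes did not pass the test in OE UPAT. 0 of 16 were called, 12 were above WT and 4 below, and DESeq2 called 0 of 16. In edgeR 8 of the 16 had an unadjusted p under 0.05, as did 8306 of all 20021 genes. KNOLLE (AT1G08560), the syntaxin that builds the new cell plate, had 12.4, 13.1 and 13.9 CPM in OE UPAT, against 9.27, 9.50 and 7.93 CPM in WT (0.55 in log2, FDR 0.0147), and 29.7% of its windows overlap a neighbouring gene. CDC20.1 (AT4G33270), an activator of the ubiquitin ligase that ends mitosis, had 16.7, 16.1 and 14.1 CPM in OE UPAT, against 9.81, 12.0 and 10.3 CPM in WT (0.55 in log2, FDR 0.0152). These were the mitosis members closest to the threshold. Both were called with library A or library C labelled OE APOLO left out of the shared fit. The same held with OE UPAT and WT alone in the fit and with no filter on low counts. Each of these settings raised the count of mitosis genes to 2, and with thinning CDC20.1 alone was called. CDC20.2 (AT4G33260), the neighbouring copy of CDC20.1, had 10.6, 10.7 and 8.11 CPM in OE UPAT, against 6.79, 8.43 and 4.93 CPM in WT, and the copies share 25.6% and 27.8% of their windows, so that their counts are not independent. The Aurora kinase genes of the spindle lay on opposite sides of WT. AUR1 (AT4G32830) had 5.04, 7.29 and 5.23 CPM in OE UPAT, against 3.88, 4.61 and 3.96 CPM in WT, a log2 fold change of 0.50 with a 95% interval of 0.10 to 0.90. AUR2 (AT2G25880) had 7.45, 7.07 and 8.76 CPM in OE UPAT, against 8.20, 11.2 and 9.95 CPM in WT, a log2 fold change of −0.34 with a 95% interval of −0.67 to −0.01, and 34.8% of its windows overlap a neighbour.

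The 7 mitotic cyclin genes, whose products activate CDKs at the entry into mitosis, had log2 fold changes of −0.21 to 0.56 in OE UPAT against WT. CYCA1;1 (AT1G44110) was the highest, with 3.40, 4.13 and 3.92 CPM in OE UPAT, against 2.80, 2.82 and 2.10 CPM in WT. CYCB1;2 (AT5G06150) had 8.49, 6.69 and 8.24 CPM in OE UPAT, against 6.11, 6.06 and 4.27 CPM in WT. CYCB1;1 (AT4G37490) had 2.63, 1.63 and 2.61 CPM in OE UPAT, against 1.65, 1.17 and 2.80 CPM in WT, where WT library C was above the OE UPAT libraries. CYCB1;4 (AT2G26760), CYCB2;2 (AT4G35620), CYCA2;1 (AT5G25380) and CYCB2;1 (AT2G17620) had log2 fold changes of 0.24, 0.18, −0.05 and −0.21, all with overlapping groups. Per kilobase of exon CYCA2;1 was the least abundant member tested, at 0.399 CPM per kb in OE UPAT and 0.409 in WT. The 4 genes of B-type CDKs, the plant kinases made toward mitosis, lay between −0.11 and 0.52. CDKB2;1 (AT1G76540) had 11.3, 11.0 and 9.15 CPM in OE UPAT, against 8.05, 8.46 and 7.62 CPM in WT, a log2 fold change of 0.38. CDKB1;1 (AT3G54180), CDKB1;2 (AT2G38620) and CDKB2;2 (AT1G20930) had log2 fold changes of 0.52, 0.22 and −0.11.

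The number of counts limits what the test can reach. The 6 mitosis genes with a mean of at least 5 CPM over all libraries, a limit set after the data were seen, had log2 fold changes with an SE of 0.141 to 0.220 in OE UPAT against WT. Their median change was 0.52 (−0.34 to 0.55), above the 0.34 of all 16, and 0 were called. The 17 S phase genes at that level had a median of 1.05 and all were called. For the 13 mitosis genes with at least 10 counts in every library the median was 0.49. With every library thinned to the smallest total, 19 S phase genes and 1 mitosis gene were called.

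**Figure D2:**
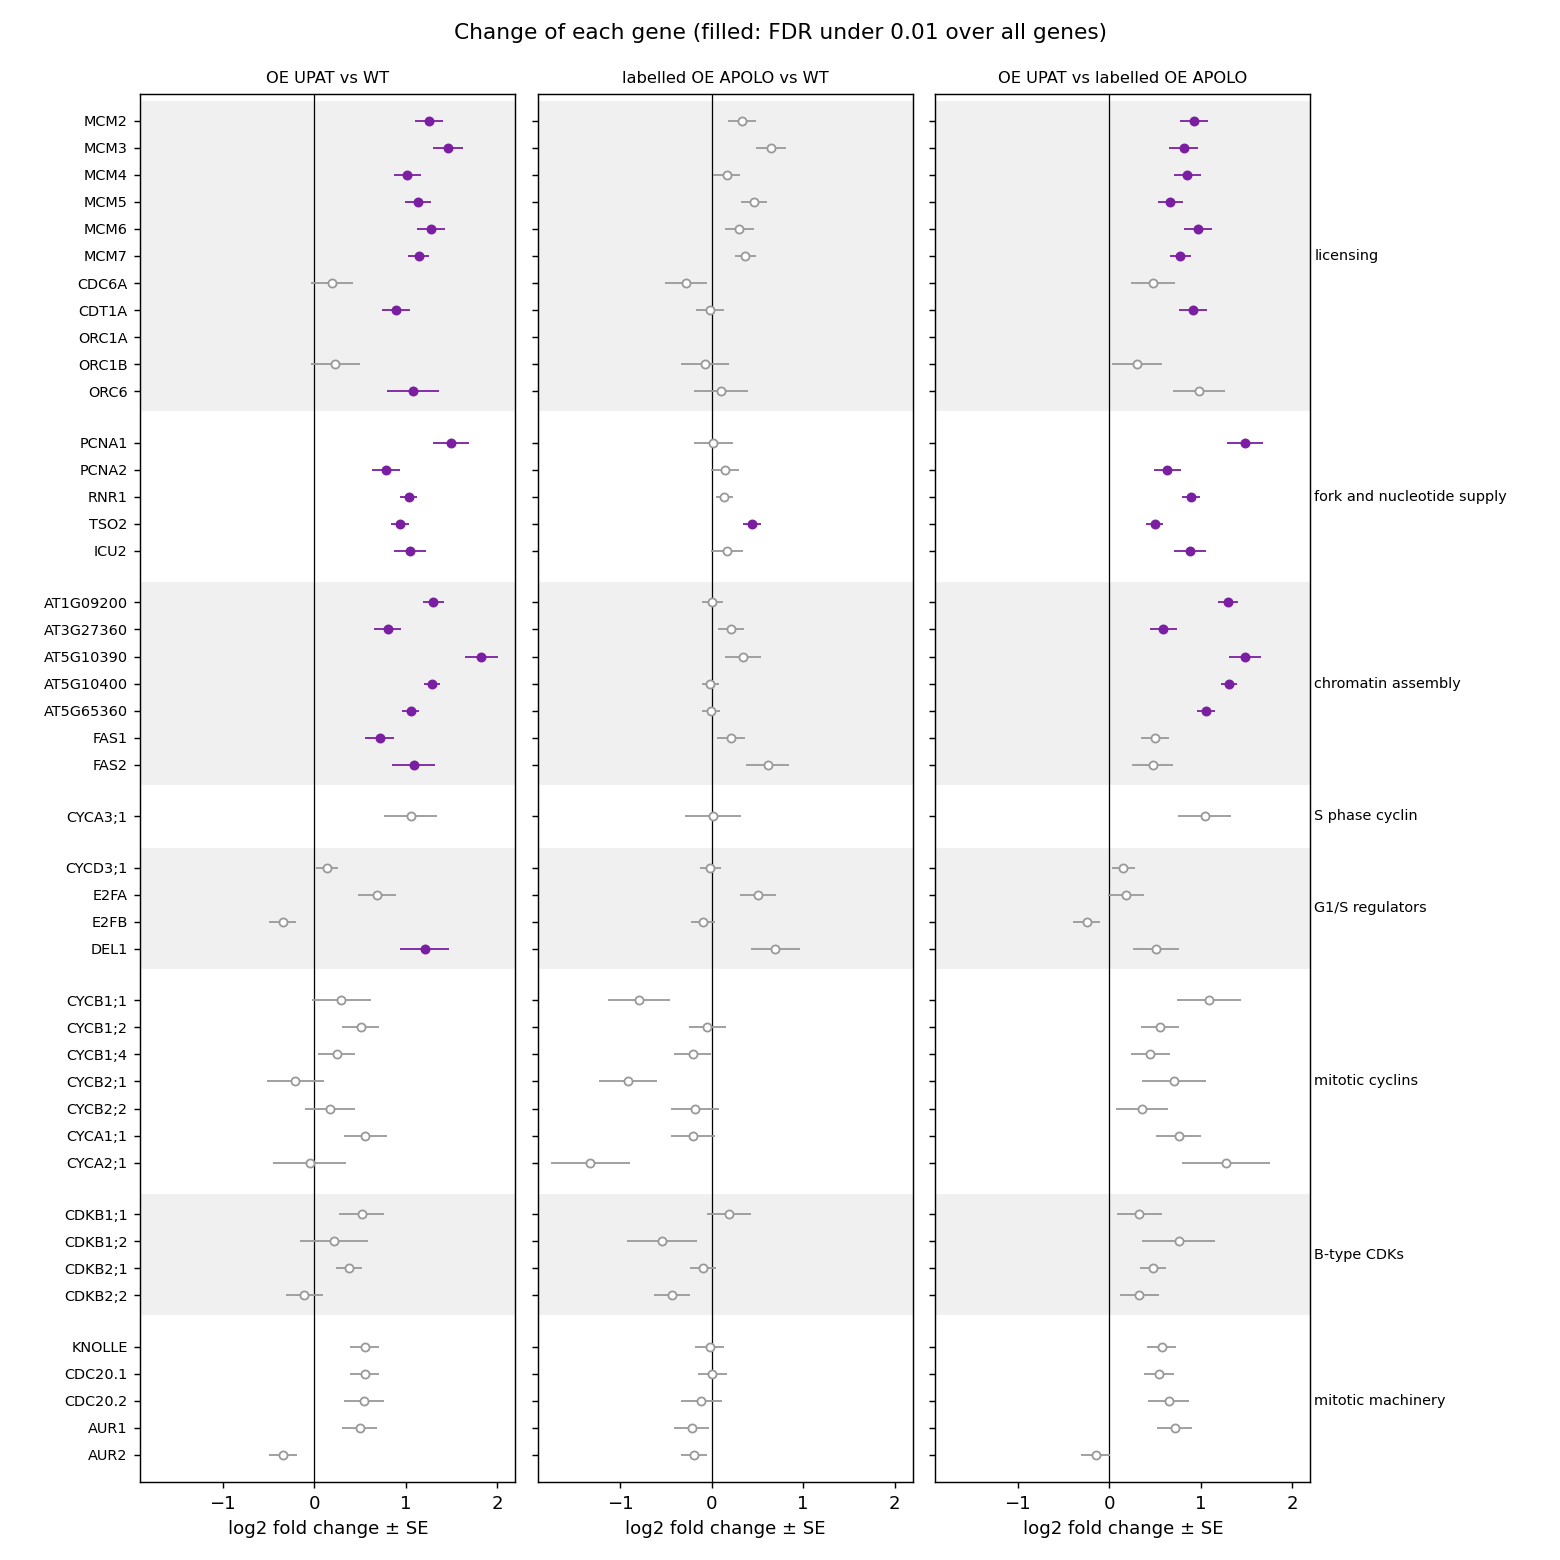
Log2 fold change ± SE of the 43 tested members in 3 comparisons, with genes in rows by function, filled purple points at an FDR under 0.01 over all genes tested and open grey points otherwise. Filled points take most of the upper rows of OE UPAT vs WT (21 genes, from 0.71 to 1.83) and of OE UPAT vs labelled OE APOLO (17 genes), and TSO2 at 0.44 is the filled point of labelled OE APOLO vs WT.

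MSA elements hold AACGG as their core. CCAACGG, a longer form, was found in 6 of 16 mitosis windows (37.5%) and 1 of 24 S phase windows, that of AT5G10390, against 509 of 27443 windows in all (1.855%), and the AACGG core, which every CCAACGG contains, in 12 of 16 mitosis windows (75%), 11 of 24 S phase windows (45.8%) and 24.65% of all. Stretches of 3 cyclin genes are shown with the longer form in capitals, as the counterpart of the E2F words in the S phase genes: CYCB1;1 on chromosome 4 (chr4:17624323-17624409, minus strand, with the element on the other strand), CYCB2;1 on chromosome 2 (chr2:7663928-7664014, plus strand) and CYCB2;2 on chromosome 4 (chr4:16901430-16901516, plus strand), where the first capital is the end of another copy.
CYCB1;1: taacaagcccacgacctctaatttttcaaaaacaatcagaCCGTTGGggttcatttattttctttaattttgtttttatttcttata
CYCB2;1: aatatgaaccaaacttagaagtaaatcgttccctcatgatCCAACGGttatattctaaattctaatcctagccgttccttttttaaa
CYCB2;2: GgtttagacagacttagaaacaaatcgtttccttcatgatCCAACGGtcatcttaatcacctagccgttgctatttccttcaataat
The paralogs CYCB2;1 and CYCB2;2 carry the element within similar surroundings. None of the genes with the longer form among the mitosis members (CYCB1;1, CYCB1;2, CYCB1;4, CYCB2;1, CYCB2;2 and KNOLLE) was called in OE UPAT. A match of letters is not a bound site.

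**Figure D3:**
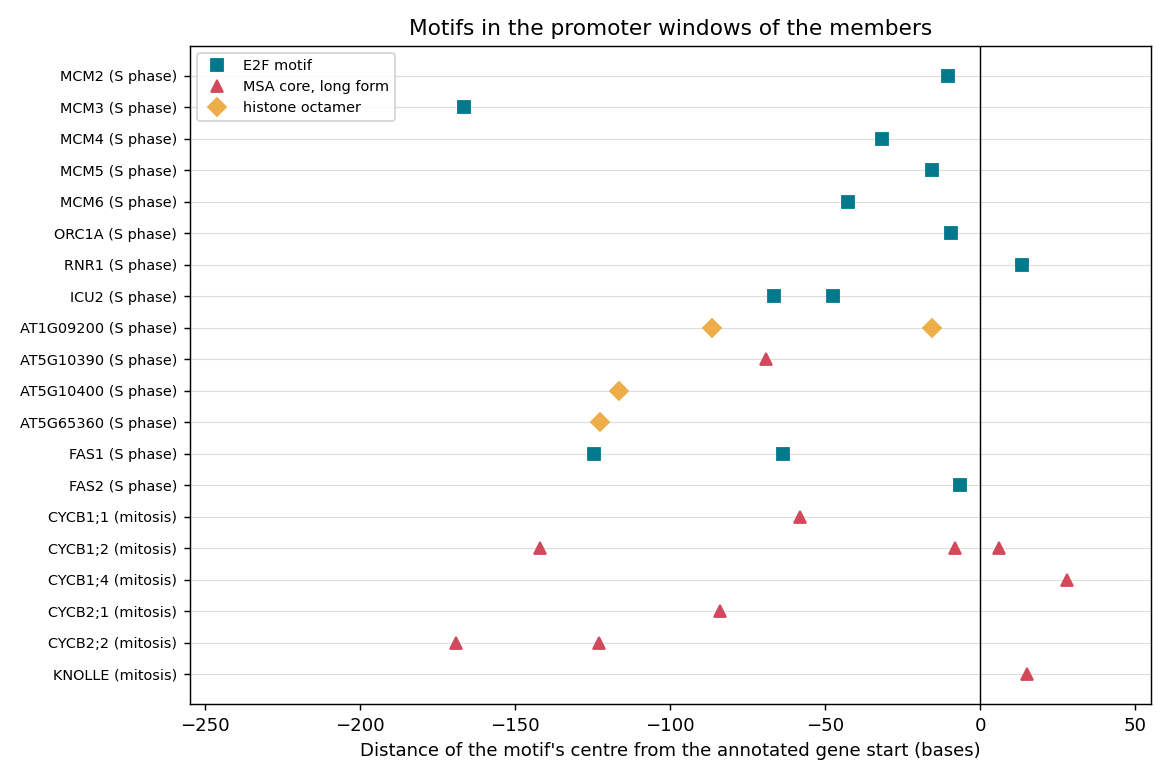
Position of motif matches in the promoter windows of the members that hold one, as the distance of the motif's centre from the annotated gene start in bases (vertical line at the start; squares E2F words, triangles CCAACGG, diamonds the histone octamer). E2F words sit in S phase rows and CCAACGG in mitosis rows, with AT5G10390 as the S phase row that holds CCAACGG.

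Set side by side in each library, the S phase genes summed to 381, 384 and 379 CPM in OE UPAT libraries A, B and C, against 179, 187 and 172 CPM in WT. The mitosis genes summed to 99.4, 94.7 and 92.5 CPM in OE UPAT, against 72.5, 83.8 and 70.1 CPM in WT. Both sums were higher in OE UPAT in every library, and the difference was larger for the S phase genes. On the scale of the mean log2(CPM + 0.5), the S phase genes (the 23 tested) stood 1.32 ± 0.071 above the mitosis genes in OE UPAT and 0.593 ± 0.041 above them in WT (SD, n = 3 each), a difference of 0.73. Gene length was not divided out, so that the distance is read between groups only. Libraries A, B and C labelled OE APOLO stood at 0.807, 1.06 and 1.18 on this measure, between both other groups. There the S phase genes summed to 207, 213 and 189 CPM, and the mitosis genes to 79.6, 69.9 and 53.0 CPM. Library C, the lowest in mitosis genes, was thus also the lowest in S phase genes within its group. These distances are descriptions over chosen genes and were given no test.

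**Figure D4:**
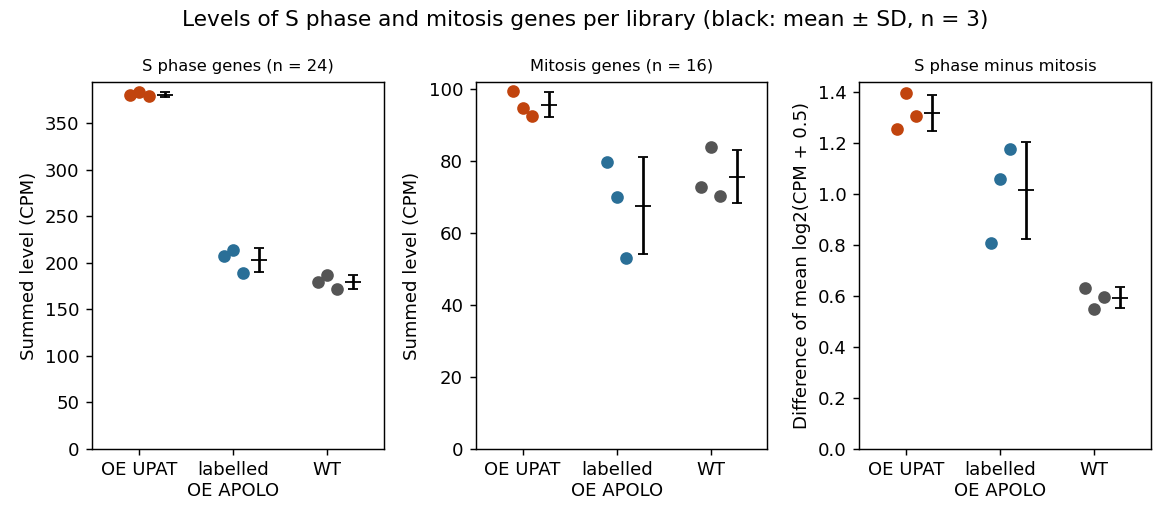
Left and middle, summed CPM of the 24 S phase and the 16 mitosis members in each library; right, mean log2(CPM + 0.5) of the 23 tested S phase members minus that of the mitosis members. Points are libraries and black marks the mean ± SD of 3; OE UPAT is at 379 to 384 CPM in S phase genes against 172 to 187 CPM in WT.

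Few members differed from WT in the libraries labelled OE APOLO. Of 43 members tested, 1 was higher than WT and 0 were lower (DESeq2 also called 1), where the background was 4.27% of all genes higher and 2.27% lower. In edgeR 11 of the 43 had an unadjusted p under 0.05, as did 5292 of all 20021 genes, a similar share. TSO2 had 22.0, 22.8 and 24.8 CPM in the libraries labelled OE APOLO, against 18.7, 15.0 and 17.5 CPM in WT (a change of 0.44 ± 0.10 SE in log2, FDR 0.00686), with the groups apart, but lost its call in 8 of 17 alternatives, among them the fits without WT library B or C without library B or C labelled OE APOLO and without OE UPAT library B or C (highest FDR 0.0360). Without any 1 of these libraries no member was called. MCM3 came next, with 7.62, 7.70 and 7.58 CPM in the libraries labelled OE APOLO, against 6.40, 4.13 and 4.04 CPM in WT (0.65 in log2, FDR 0.0163), and was called when WT library A was left out, so that 2 members were. The 23 S phase genes had a median log2 fold change of 0.16, with 18 above WT, and 6 of them had all 3 labelled OE APOLO libraries above WT, where 15.9% of all genes did. The 6 MCM genes all lay above WT, at log2 fold changes of 0.16 to 0.65, whereas the 5 H3.1 genes lay at −0.01 to 0.34.

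The mitosis genes in these libraries lay mostly below WT without passing the test. 14 of 16 were below WT, with a median log2 fold change of −0.20, and 0 were called. This count and median include CYCA2;1 and CYCB2;1, which passed the filter on low counts through other groups alone. In edgeR 4 of the 16 had an unadjusted p under 0.05, as did 5292 of all 20021 genes, a similar share. CDKB1;2 had 2.02, 1.48 and 0.345 CPM in the libraries labelled OE APOLO, against 1.87, 1.79 and 2.10 CPM in WT, of which library C was far below the others. Without library C labelled OE APOLO the median of the mitosis genes was −0.06, and without WT library B it was −0.07. The 6 mitosis genes with a mean of at least 5 CPM over all libraries had a median of −0.07 (−0.19 to 0.01). At least 10 counts in every library left 13 mitosis genes, with a median of −0.19. CYCA2;1 had 0.374, 0.148 and 0.431 CPM in the libraries labelled OE APOLO, against 0.719, 0.895 and 0.777 CPM in WT (−1.33 in log2, FDR 0.0576). CYCB2;1 had 0.710, 0.740 and 0.603 CPM in the libraries labelled OE APOLO, against 1.58, 1.10 and 1.32 CPM in WT (−0.92 in log2, FDR 0.0687). For both, 0 of the 3 libraries labelled OE APOLO reached the cutoff of the filter on low counts, so that they were tested through WT and OE UPAT, where they were higher, and their lower values with the label OE APOLO are given as a description. Of 9 meristem and primordium genes tested, set beside them as markers of dividing tissue, 7 lay below WT in the libraries labelled OE APOLO, with a median log2 fold change of −0.34, 0 called and 4 at an unadjusted p under 0.05 (AN3, SHR and GRF5 below WT and KNAT1 above it). The part of dividing tissue in the values of the mitosis genes was not tested.

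OE UPAT set directly against the libraries labelled OE APOLO, with which it shares no control, gave 17 members higher and 0 lower, all of them S phase genes, where 8.49% of all genes were higher and 9.36% lower. The 23 S phase genes had a median log2 fold change of 0.88 and were all positive. AT5G10390 had 9.42, 12.6 and 10.9 CPM in OE UPAT, against 4.41, 4.00 and 3.28 CPM in the libraries labelled OE APOLO (a change of 1.49 ± 0.18 SE in log2, FDR 2.55e-05). PCNA1 had 9.42, 8.49 and 7.45 CPM in OE UPAT, against 2.61, 3.77 and 2.67 CPM in the libraries labelled OE APOLO (a change of 1.48 ± 0.20 SE in log2, FDR 6.33e-05). AT5G10400 had 30.0, 30.2 and 29.4 CPM in OE UPAT, against 12.8, 12.0 and 11.4 CPM in the libraries labelled OE APOLO (a change of 1.31 ± 0.09 SE in log2, FDR 1.08e-07). For these 3 genes the libraries labelled OE APOLO overlapped those of WT. The MCM genes differed by 0.67 (MCM5) to 0.97 (MCM6), less than against WT, and their fitted levels in the libraries labelled OE APOLO lay between both other groups. ORC6, FAS1, FAS2, CYCA3;1, ORC1B and CDC6A were the S phase genes not called here. PCNA2 and AT3G27360 lost their calls in 6 of 17 alternatives each, among them the fits without any 1 OE UPAT library or library C labelled OE APOLO, and for PCNA2 library A too (highest FDR 0.0220 and 0.0274). MCM5 lost its call without OE UPAT library A (FDR 0.0113).

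The mitosis genes of OE UPAT lay above those of the libraries labelled OE APOLO in 15 of 16 cases, with a median log2 fold change of 0.57. None passed the test (0 of 16 also in DESeq2). In edgeR 10 of the 16 had an unadjusted p under 0.05, as did 8035 of all 20021 genes. For 10 genes every OE UPAT library lay above every labelled OE APOLO library, where this held for 19.8% of all genes. CYCA2;1 and CYCB2;1, which passed the filter through other groups, are among the 15 genes above and among the 10 genes with groups apart. AUR1 had 5.04, 7.29 and 5.23 CPM in OE UPAT, against 4.18, 3.40 and 3.1 CPM in the libraries labelled OE APOLO (0.71 in log2, FDR 0.0118), the mitosis gene closest to the threshold. KNOLLE had 12.4, 13.1 and 13.9 CPM in OE UPAT, against 9.71, 10.2 and 6.29 CPM in the libraries labelled OE APOLO (0.57 in log2, FDR 0.0136). Without library A labelled OE APOLO 3 mitosis genes were called (KNOLLE, CDC20.1 and AUR1), and without library B of that label KNOLLE was. With no filter on low counts the same 3 were called, and with upper-quartile scaling KNOLLE and AUR1 were. A replicate block led to a call of CDC20.2, and thinning to a call of CYCA1;1. In S phase genes 21 of 23 had every OE UPAT library above every labelled OE APOLO library, and in OE UPAT against WT this held for 21 of 23 S phase and 7 of 16 mitosis genes, where 23.1% of all genes did.

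Other genes of the same pathways were taken from lists of replication, S phase entry, mitosis, CDK inhibition and DNA damage. Of 24 other replication genes tested, 6 rose in OE UPAT and 0 fell against WT, with a median log2 fold change of 0.50. Of all genes tested, 10.1% rose and 9.72% fell in this comparison. ETG1, a partner of the MCM ring, had 10.3, 9.41 and 9.02 CPM in OE UPAT, against 4.67, 3.99 and 4.66 CPM in WT (a change of 1.11 ± 0.15 SE in log2, FDR 5.25e-05). LIG1, the ligase that joins new DNA pieces, had 29.6, 26.4 and 27.8 CPM in OE UPAT, against 17.4, 19.3 and 16.2 CPM in WT (a change of 0.66 ± 0.09 SE in log2, FDR 6.26e-05). FEN1, the nuclease that trims them, had 12.6, 11.1 and 11.9 CPM in OE UPAT, against 6.97, 6.88 and 6.60 CPM in WT (a change of 0.80 ± 0.13 SE in log2, FDR 0.000205). Their groups did not overlap. CDT1B, a copy of CDT1A, had 2.30, 2.61 and 2.88 CPM in OE UPAT, against 0.647, 1.24 and 1.17 CPM in WT (a change of 1.34 ± 0.30 SE in log2, FDR 0.00321), and POLA2 and CDC45 also rose. Against WT the libraries labelled OE APOLO had LIG1 higher, at 23.9, 22.7 and 25.5 CPM in the libraries labelled OE APOLO, against 17.4, 19.3 and 16.2 CPM in WT (a change of 0.45 ± 0.09 SE in log2, FDR 0.00396), and PSF1, a subunit of the GINS helper of the helicase, lower, at 9.04, 10.7 and 10.9 CPM in the libraries labelled OE APOLO, against 14.3, 14.6 and 15.4 CPM in WT (a change of −0.54 ± 0.11 SE in log2, FDR 0.00432). In OE UPAT against WT 18 of the 24 had a positive log2 fold change and 6 a negative one, and 18 were not called. PSF1 had every OE UPAT library below WT (−0.41, FDR 0.0123). Also not called were RNR2A (−0.21), TK1B (−0.05), RFC1 (0.12), POLD1 (0.33), ASF1A (−0.17), ASF1B (−0.05) and the CAF-1 gene MSI1 (0.29, FDR 0.0189). Other genes not called had larger positive changes, among them MCM10 (1.29, FDR 0.0112), ORC3 (0.93, FDR 0.0257), ORC4 (0.59, FDR 0.0139), SLD5 (0.57, FDR 0.0358) and POL2A (0.55, FDR 0.0207). In edgeR 17 of the 24 had an unadjusted p under 0.05, as did 8306 of all 20021 genes.

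Of 24 other mitosis genes, 1 rose in OE UPAT and 1 fell against WT, where 10.1% and 9.72% of all genes did. Their median log2 fold change was 0.39. UVI4, an inhibitor of the ligase that ends mitosis, had 1.64, 1.52 and 2.22 CPM in OE UPAT, against 0.431, 0.826 and 0.777 CPM in WT (a change of 1.38 ± 0.36 SE in log2, FDR 0.00926), with few counts in each library. The cyclin gene CYCB2;3 had 10.8, 8.16 and 7.65 CPM in OE UPAT, against 12.6, 14.0 and 11.9 CPM in WT (a change of −0.54 ± 0.14 SE in log2, FDR 0.00817), and was lower still in the libraries labelled OE APOLO, at 6.22 ± 0.395 CPM (SD, n = 3; log2 fold change against WT −1.05). It was the sole other mitosis gene called in those libraries. Of 15 other regulators of S phase entry, CYCD1;1, a D-type cyclin, was called higher against WT in OE UPAT (a change of 0.41 ± 0.10 SE in log2, FDR 0.00477) and in the libraries labelled OE APOLO (a change of 0.56 ± 0.09 SE in log2, FDR 0.000923), comparisons that share the WT libraries. It was the sole gene of its list called in either comparison, where 10.1% and 4.27% of all genes were called higher.

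Among 8 DNA damage response genes tested, BRCA1, a DNA repair factor, was higher in OE UPAT, at 3.72, 3.59 and 3.40 CPM in OE UPAT, against 1.44, 2.06 and 1.40 CPM in WT (a change of 1.12 ± 0.23 SE in log2, FDR 0.00174). The other 7 were not called, and the libraries labelled OE APOLO had 0 of 8 called (1 at an unadjusted p under 0.05 in edgeR, as 5292 of all 20021 genes were). Of all genes, 10.1% were called higher and 9.72% lower in OE UPAT. In the libraries labelled OE APOLO these shares were 4.27% and 2.27%. Of the 9 meristem and primordium genes tested, 0 rose and 1 fell in OE UPAT, the leaf growth coactivator gene AN3, at 14.2, 10.01 and 11.2 CPM in OE UPAT, against 22.2, 23.6 and 21.1 CPM in WT (a change of −0.91 ± 0.15 SE in log2, FDR 0.000245). The meristem gene KNAT1 was called lower in OE UPAT than in the libraries labelled OE APOLO, at 25.1, 25.8 and 26.9 CPM in OE UPAT, against 35.4, 34.4 and 30.7 CPM in the libraries labelled OE APOLO (a change of −0.37 ± 0.09 SE in log2, FDR 0.00448). The 13 genes of that list summed to 96.6 to 110 CPM in OE UPAT, 99.2 to 120 CPM in the libraries labelled OE APOLO and 109 to 121 CPM in WT. WUS, CLV3, WOX5 and CUC2, genes of small groups of meristem cells, had at most 1.09 CPM in any library and were not tested, and the part of cell makeup in the S phase result was not tested.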

How the data were processed

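Whole 4-day-old seedlings were profiled, 3 libraries per group. Per the methods of the study, the authors made stranded mRNA libraries, sequenced 75-base single-end reads, trimmed them with Trimmomatic 0.36, removed ribosomal reads with SortMeRNA, aligned the rest to TAIR10 with STAR 2.5.2b and counted them over exons with featureCounts (Subread 1.6.5) and Araport11. The treatment of shared reads and of the strand is not stated in the sources used here, so that overlapping genes and close copies are uncertain. The deposited values are estimated counts, some of them fractions (11 members), and were rounded for the tests. Rows of transposable elements (0.233% to 0.272% of the counts) were left out of totals and tests.

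Counts were tested in edgeR 4.0.16 (R 4.3.3), with TMM scaling, filterByExpr, glmQLFit and glmQLFTest, all 3 groups in 1 fit and an FDR under 0.01, which left 20021 genes. CPM is the deposited value over the library's gene total times its TMM factor, SE is the log2 fold change over the root of F, and 95% intervals use the t distribution with edgeR's degrees of freedom. The test was checked on simulated counts with a fixed spread and changes in better-measured genes alone. That check does not cover members with few counts or the spread between the real libraries. Libraries of a group differed by more than sampling noise (chi-square per gene 1.75 to 7.00). The methods state independent biological replicates for a related set, and p-values measure the spread between these libraries. Promoter windows came from the RefSeq TAIR10.1 genome, and shared windows are 75-base stretches of a gene's exons that also occur in another gene's. Alternatives were DESeq2 1.42.0, other scalings, filters and thresholds, thinning, a replicate block, fits of 2 groups and each library left out.

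Members and gene lists were chosen with earlier results of these data known. All 44 members could be named, those past the threshold in any comparison library by library. Of other lists at most 4 called genes each per comparison were given by library, by FDR. Some replication genes that were not called were added as a contrast. Proteins are not shown.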

Additional observations from a re-analysis of the deposited data

How the results depend on the processing

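Of the 21 members called in OE UPAT against WT, 17 kept their call in all 17 alternatives, which left the threshold as it was. The count ran from 18 to 24 over the fits that left out 1 library each. It was 26 at an FDR under 0.05 and 16 at a log2 fold change of at least 1. No member turned its direction while called. In the libraries labelled OE APOLO against WT, the 1 member called became 2 with no filter, 0 with thinning, with 2 groups in the fit, with a log2 fold change of at least 1 or without members with fractional counts, and 4 at an FDR under 0.05, with 0 to 2 when 1 library was left out. In OE UPAT against these libraries, 17 became 27 at an FDR under 0.05 and 5 at a log2 fold change of at least 1, with 14 to 19 when 1 library was left out. Of the other pathway lists, markers left out, the 12 genes called in OE UPAT against WT became 7 in DESeq2, 19 with 2 groups, 28 at an FDR under 0.05 and 4 at a log2 fold change of at least 1, with 5 to 17 over libraries left out (5 without WT library A, 6 and 7 without OE UPAT library B and C). The 5 called in the libraries labelled OE APOLO against WT became 8 and 1 at those thresholds, with 3 to 6 over libraries left out (3 without WT library A or C). The 12 called between both lines became 5 in DESeq2, 7 with thinning or 2 groups, 23 and 4 at those thresholds, and 3 to 18 over libraries left out (3, 5 and 4 without OE UPAT library A, B and C, 18, 6 and 5 without library A, B and C labelled OE APOLO). The distance between S phase and mitosis levels in OE UPAT against WT (0.73) was 0.63 with a pseudocount of 2, 0.83 over medians and 0.82 without fractional members. In the libraries labelled OE APOLO against WT it was 0.42. There it fell to 0.29 with a pseudocount of 2 and to 0.31 with members of at least 5 CPM. It rose to 0.48 over medians and to 0.49 without fractional members. On the plus strand alone, 5 S phase windows held an E2F word. Same-letter libraries correlated at −0.25 to 0.18 in their deviations from the group means, and not every library correlated best with its own letter. Between both lines, A with A (0.18) and B with B (0.14) correlated most, and C with C stood at 0.003. The highest values over all groups were between different letters. WT library B stood at 0.32 with library A labelled OE APOLO and at 0.20 with OE UPAT library A. With 3 libraries per group these values cannot settle whether the letters mark pairs or batches. With the letter as a replicate block, 20, 1 and 18 members were called in the 3 comparisons. The causes of these shifts were not tested, beyond the fewer samples or genes in a fit. The lower totals of OE UPAT limit precision most for members such as ORC1A, with 1 to 10 counts.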

Other observations

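Genes that brake the cycle were measured beside the members, 13 of 15 with enough counts to be tested. In OE UPAT against WT 1 was called higher and 1 lower, where 10.1% and 9.72% of all genes were. KRP1, a CDK inhibitor, had 14.0, 14.1 and 14.6 CPM in OE UPAT, against 9.35, 9.98 and 10.1 CPM in WT (a change of 0.54 ± 0.10 SE in log2, FDR 0.00104). In the libraries labelled OE APOLO it was at 14.9 ± 0.895 CPM (SD, n = 3; log2 fold change against WT 0.60), a comparison that shares the WT libraries. KRP4, another inhibitor of the family, was lower in OE UPAT, with 28.6, 26.7 and 28.9 CPM in OE UPAT, against 40.5, 37.1 and 39.3 CPM in WT (a change of −0.48 ± 0.07 SE in log2, FDR 0.000170), and its groups did not overlap. The family thus had 1 gene higher and 1 lower in OE UPAT. WEE1, a kinase that restrains CDKs when DNA is damaged, had 1.53, 2.18 and 1.96 CPM in OE UPAT, against 0.896, 0.592 and 0.259 CPM in the libraries labelled OE APOLO (a change of 1.65 ± 0.38 SE in log2, FDR 0.00441), and its counts were low. It passed the filter on low counts through OE UPAT, since 1 of 3 libraries labelled OE APOLO and 1 of 3 WT libraries reached the cutoff. In the same comparison KRP4 was lower in OE UPAT, with 28.6, 26.7 and 28.9 CPM in OE UPAT, against 37.7, 39.4 and 38.1 CPM in the libraries labelled OE APOLO (a change of −0.46 ± 0.07 SE in log2, FDR 0.000352).

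Between both lines, 2 of 8 DNA damage genes and 2 of 15 other regulators of S phase entry were called, all higher in OE UPAT. Of all genes tested, 8.49% were higher and 9.36% lower in this comparison. The counts are small and are given as a description. GR1, a DNA break repair gene, had 1.64, 1.63 and 1.83 CPM in OE UPAT, against 0.523, 0.296 and 0.345 CPM in the libraries labelled OE APOLO (a change of 2.09 ± 0.38 SE in log2, FDR 0.000806). It passed the filter through OE UPAT, since 0 of 3 libraries labelled OE APOLO reached the cutoff. BRCA1 had 3.72, 3.59 and 3.40 CPM in OE UPAT, against 1.94, 1.48 and 1.72 CPM in the libraries labelled OE APOLO (a change of 1.06 ± 0.23 SE in log2, FDR 0.00318). CYCD2;1, a D-type cyclin gene, had 16.2, 15.2 and 15.0 CPM in OE UPAT, against 10.4, 12.0 and 10.9 CPM in the libraries labelled OE APOLO (a change of 0.48 ± 0.11 SE in log2, FDR 0.00392). DEL3, an atypical E2F, had 2.85, 2.72 and 3.01 CPM in OE UPAT, against 1.27, 1.78 and 0.776 CPM in the libraries labelled OE APOLO (a change of 1.14 ± 0.29 SE in log2, FDR 0.00854). GR1 and DEL3 rest on few counts per library. Of mitosis genes, HIK, a kinesin of cell plate formation, had 8.54, 6.85 and 7.13 CPM in OE UPAT, against 5.68, 4.00 and 3.71 CPM in the libraries labelled OE APOLO (a change of 0.74 ± 0.19 SE in log2, FDR 0.00756). GIG1, an inhibitor of the ligase that ends mitosis, had 2.96, 3.48 and 3.14 CPM in OE UPAT, against 2.02, 1.48 and 1.29 CPM in the libraries labelled OE APOLO (a change of 0.99 ± 0.25 SE in log2, FDR 0.00745), with the libraries labelled OE APOLO below both other groups.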
